A study of Arabidopsis thaliana with 7 samples.

Results

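Ribosome footprints over coding sequences were compared between Arabidopsis thaliana roots kept without phosphate and roots supplied with it. The comparison took in every coding sequence of the deposited gene table, 27416 in all, in 2 of the series' 7 samples, each with 2 bioreplicate libraries. Of these genes, 5182 had no footprint in any of the 4 libraries, and 19866 passed the low-count filter and were tested. Seedlings of both conditions grew for 7 d on medium with 500 µM NaH2PO4 and were then moved for 7 d to the same medium (control) or to 0 µM NaH2PO4, with NaCl in place of its sodium (low phosphate). Complete root systems were taken at 14 d. The control plants and the low phosphate plants alike carried 35S:His6FLAG-RPL18B, a FLAG-tagged ribosomal protein driven by the 35S promoter in the Columbia-0 background, from 1 transgenic line; the sample characteristics write the line as 35S:HF-FLAG-RPL8. Tagged ribosomes were pulled down and digested with RNase, and protected fragments of 26 to 32 nt were sequenced. Counts per library were 7156329 and 7324092 for the controls, and the low phosphate libraries were deeper, at 12817826 and 8940746. Values below are CPM, counts relative to the TMM-scaled library total, always in the order replicate 1 then replicate 2. Since coding lengths were not used, CPM are compared between conditions and not between genes. The exception is the ranking of called genes by gain or loss in CPM. Poly(A) RNA of the same line and double-stranded RNA (dsRNA) of roots labelled Col-0, each with 2 libraries per condition, serve as comparison assays.

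A ribosome shields a short stretch of the mRNA it is translating, so footprints over a coding sequence follow both the amount of the mRNA and how many ribosomes it carries. Plants short of phosphate are known to raise high-affinity uptake, to release phosphate from organic compounds with secreted phosphatases and nucleases, to swap membrane phospholipids for galactolipids and sulfolipids, and to grow longer and denser root hairs. The transcription factor PHR1 drives much of this programme, SPX proteins restrain it when phosphate is plentiful, and the ubiquitin-conjugating enzyme PHO2 limits phosphate export to the shoot.

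Low phosphate roots differed from control in the footprints of a small fraction of genes, and most called changes were gains. By edgeR's quasi-likelihood test with a Benjamini-Hochberg adjusted p under 0.05, 237 genes were called, 1.19% of those tested. Of these, 181 were higher (0.911%) and 56 lower (0.282%), and the median log2 change of all tested genes was 0.00. The gains were also larger in size. The median called gain was 1.52 on the log2 scale and the median called loss -1.31. A change of at least 2-fold was reached by 149 of the higher genes and 46 of the lower ones, and changes over 8-fold by 23 higher genes and 1 lower gene. The smallest called change was 0.66 in log2 units. In each called gene both low phosphate libraries lay beyond both control libraries, against 19.5% of all tested genes with both above and 18.4% with both below. The same libraries chose the called genes, so this separation is no separate support for the calls.

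Calls were more frequent among genes with more reads. No gene with a mean under 1 CPM was called by edgeR of 914 tested, with 41 at an unadjusted p under 0.05 and none called by DESeq2, which gave 750 of them no adjusted p. This stood against 0.565% of 6377 genes at 1 to 10 CPM, 1.48% of 10342 genes at 10 to 100 CPM and 2.15% of 2233 genes above 100 CPM. Replicates of 1 condition differed by a median of 0.27 log2 units in control and 0.24 in low phosphate. The count of calls depended on single libraries. Without control replicate 1, 74 genes were called higher and 19 lower, and without low phosphate replicate 1, 105 and 16. In all 4 fits that each left out 1 footprint library, 69 of the higher genes and 13 of the lower ones were called. They include PS2, MGDC, PEPC1, SPX3, HAK5 and ANNAT1 among the gains and NRT1.1, NAS1, COPT2, HSP70 and FLS1 among the losses.

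**Figure D1:**
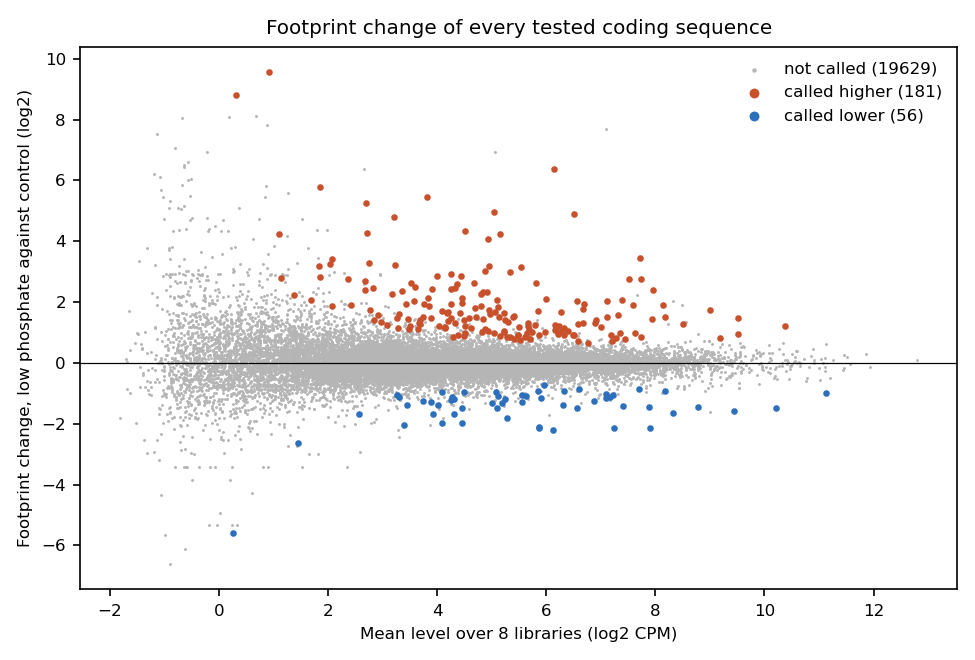
Each point is 1 of the 19866 tested coding sequences, with its mean level over the 4 footprint and 4 poly(A) libraries (log2 CPM) on the x axis and its footprint change in low phosphate against control (log2) on the y axis. The 181 genes called higher reach larger changes than the 56 called lower, and none of the 914 genes left of 0 on the x axis, which is a mean of 1 CPM, is called.

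The 181 higher genes took 0.768% and 0.823% of a control library and 2.21% and 2.03% of a low phosphate library. The 56 lower genes took 1.26% and 1.32% in control and 0.489% and 0.568% in low phosphate. These shares describe genes that the same contrast chose, so they carry no test. The most abundant footprints were distributed alike in all libraries, with 5.86% to 6.04% of counts in the top 20 genes of each library.

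Genes of phosphate uptake and sensing gained footprints, with the gains in the PHT1 transporters, which carry phosphate across the plasma membrane, and in SPX3. Of 20 tested members of this list, 8 rose and none fell, with a list median of 0.82 in log2 units against 0.00 for all genes. Among all tested genes, 0.911% were called higher. Besides SPX3 the 8 were PHT1;2, PHT1;4, PHT1;5, PHT1;8, PHT1;9, PHO1;H1, a homologue of the phosphate exporter PHO1, and PHF1, which helps PHT1 proteins leave the endoplasmic reticulum. PHT1;4 (AT2G38940) had 88.3 and 104 CPM in control and 503 and 515 in low phosphate, a log2 change of 2.40 ± 0.17 (SE, n = 2 libraries per condition; edgeR adjusted p = 0.000217). The 2 conditions were far apart and the replicates close. PHT1;8 (AT1G20860) had 5.35 and 7.83 CPM in control and 38.0 and 41.7 in low phosphate, a change of 2.59 ± 0.22 (adjusted p = 0.000815). PHT1;5 (AT2G32830) was almost unread in control, with 2 counts over both libraries against 168 in low phosphate. The ratio scaled to library size was 56.0, with an exact 95% counting interval from 15.3 to 466 that covers counting error only (edgeR adjusted p = 0.00471).

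A main transporter of replete roots, PHT1;1 (AT5G43350), was not called. It had 262 and 227 CPM in control and 350 and 401 in low phosphate, which do not overlap, with a change of 0.62 ± 0.17 and an edgeR adjusted p of 0.165; DESeq2 gave 0.0472. PHT1;1 and PHT1;2 are close relatives, and reads that suit both may be split between them. PHO1 (AT3G23430), which loads phosphate into the xylem, had 137 and 158 CPM in control and 249 and 152 in low phosphate, which overlap. PHO2 (AT2G33770) had 113 and 124 CPM in control and 92.0 and 73.9 in low phosphate, a change of -0.51 ± 0.15 (edgeR adjusted p = 0.223).

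For SPX1 (AT5G20150), a phosphate sensor and PHR1 inhibitor, the control libraries disagreed. It had 60.5 and 278 CPM in control and 616 and 655 in low phosphate, a change of 1.91 ± 0.78 that was not called (edgeR adjusted p = 0.388). The poly(A) libraries split the same way, with 35.6 and 220 CPM in control. A like split was seen in 2 other genes, which were chosen after their values were seen. PAP17 (AT3G17790), an acid phosphatase, had 50.8 and 112 CPM in control and 416 and 353 in low phosphate (adjusted p = 0.0589). SRG3 (AT3G02040) had 63.3 and 195 CPM in control and 513 and 543 in low phosphate (adjusted p = 0.228). In these 3 genes control replicate 2 stood between control replicate 1 and the low phosphate libraries, and what set it apart was not tested. Other genes with large gains split the other way in control, such as PEPC1 (3.86 and 0.580 CPM) and MGDC (3.12 and 1.45 CPM). The median control difference, replicate 1 minus replicate 2, was -0.14 log2 units in the phosphate uptake and sensing list. It was -0.12 in the phosphatase and nuclease list and -0.20 in the lipid list.

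Phosphatases and nucleases, which free phosphate from organic molecules, held the steepest gain among the genes that the naming rule picked. Of 14 tested members, 6 rose and none fell, against 0.911% of all tested genes called higher, and the median log2 change was 1.65. PEPC1 (AT1G17710), a phosphatase acting on phosphoethanolamine and phosphocholine, went from 3.86 and 0.580 CPM to 179 and 185 CPM, an increase of 6.36 ± 0.61 in log2 units (edgeR adjusted p = 0.00135). RNS1 (AT2G02990), a secreted ribonuclease, had 0.149 and 0.435 CPM in control and 5.33 and 6.06 in low phosphate, and rose by 4.24 ± 0.58 (adjusted p = 0.00713). Its call was lost without control replicate 1 (adjusted p = 0.0701). RNS2, a vacuolar ribonuclease, rose by 0.66 ± 0.13 (adjusted p = 0.0415). The RNS2 call did not hold in every fit that left out a footprint library. The purple acid phosphatases PAP12 (AT2G27190) and PAP22 (AT3G52820) rose as well. PAP12 had 77.6 and 82.3 CPM in control and 241 and 216 in low phosphate, a change of 1.52 ± 0.14 (adjusted p = 0.00109). The conditions did not overlap for either gene. PAP10 and PAP26, further acid phosphatases of roots, were not called, with changes of 0.55 ± 0.21 and 0.36 ± 0.16.

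Genes of lipid remodelling gained footprints. Of 21 tested members, 12 rose and none fell, against 0.911% of all tested genes called higher, and the median log2 change was 1.74. One further entry of this list, AT1G73600, was left out of these counts because the reference gives it no matching name, and it was called lower (-2.04 ± 0.39, edgeR adjusted p = 0.0380); its call was lost in each fit without 1 footprint library (0.108 to 0.191). The gains covered galactolipid synthesis (MGDC, MGD2, DGD2), sulfolipid synthesis (SQD1, SQD2, UGP3), the breakdown of phospholipids (NPC4, PLDP2, PAH1) and the glycerol-3-phosphate permeases G3Pp1 and G3Pp2. XPL1, which methylates phosphoethanolamine on the way to phosphatidylcholine, rose too. SQD2 (AT5G01220), the sulfolipid synthase, had 44.7 and 69.3 CPM in control and 354 and 423 in low phosphate, a change of 2.77 ± 0.27 (edgeR adjusted p = 0.00135). NPC4 (AT3G03530), a phospholipase C, had 9.66 and 8.84 CPM in control and 81.0 and 82.5 in low phosphate, a change of 3.14 ± 0.18 (adjusted p = 9.27e-05). Replicates of NPC4 differed little beside the distance between the conditions. PLDP2 (AT3G05630), a phospholipase D, had 6.69 and 7.68 CPM in control and 43.0 and 46.9 in low phosphate, a change of 2.64 ± 0.22 (adjusted p = 0.000815).

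Paralogs of 1 enzymatic step in this list are given side by side. Of the monogalactolipid synthases, MGDC (AT2G11810) rose by 4.95 ± 0.33 and MGD2 (AT5G20410) by 3.22 ± 0.46, while MGD1, the enzyme of plastid membranes in replete plants, had a change of 1.03 ± 0.33 that was not called (edgeR adjusted p = 0.256). DGD2 rose by 0.87 ± 0.16, and DGD1 had 0.41 ± 0.17 (adjusted p = 0.404). PAH1 rose by 0.89 ± 0.15, and PAH2 had 0.31 ± 0.14 (adjusted p = 0.441). The calls of DGD2 and PAH1 did not hold in every fit that left out a footprint library. PLDP1 had 0.12 ± 0.16 (adjusted p = 0.827). The differences between paralogs were not tested. G3Pp1 (AT3G47420) had 204 and 342 CPM in control and 1089 and 741 in low phosphate. It rose by 1.74 ± 0.32 (adjusted p = 0.0341), a call lost with either control replicate left out (0.280 and 0.0512) and with low phosphate replicate 1 left out (0.223). Without control replicate 1, MGD2 (0.0648) and UGP3 (0.0769) lost their calls as well, MGD2 also without control replicate 2 (0.0759), and the list had 7 calls.

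Of 15 genes of carbon metabolism that bypass or spare phosphate, 3 rose and none fell, with a median log2 change of 0.36. Among all tested genes, 0.911% were called higher. PPC1 (AT1G53310) and PPC2 (AT2G42600) encode phosphoenolpyruvate carboxylases, which make organic acids that roots can exude. PPC1 had 608 and 768 CPM in control and 1303 and 1378 in low phosphate, a change of 0.96 ± 0.16 (edgeR adjusted p = 0.0207). PPC2 had 58.0 and 71.5 CPM in control and 163 and 159 in low phosphate, a change of 1.32 ± 0.16 (adjusted p = 0.00401). PPC3, from the same family, had 841 and 960 CPM in control and 898 and 903 in low phosphate, and the conditions overlapped. SUS4, a sucrose synthase, rose by 1.69 ± 0.20 (adjusted p = 0.00348). Only SUS4 was still called without control replicate 1; PPC1 then had an adjusted p of 0.191 and PPC2 of 0.0632, and PPC1 also lost its call without low phosphate replicate 1 (0.0787) or 2 (0.0764). None of 14 tested regulators of the response (WRKY, LPR, PDR2, ALMT1 and others) was called by edgeR, with 3 at an unadjusted p under 0.05; DESeq2 called ALMT1 and WRKY45. The malate channel gene ALMT1 had 53.2 and 36.1 CPM in control and 102 and 97.4 in low phosphate, a change of 1.16 ± 0.24 (adjusted p = 0.0638).

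**Figure D2:**
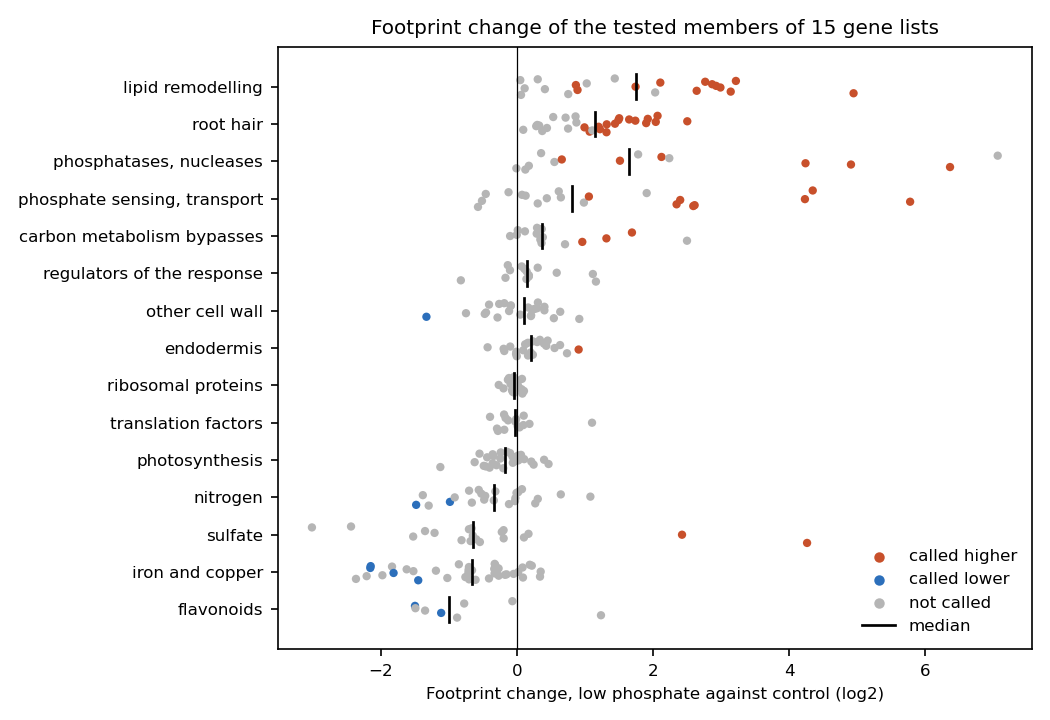
Footprint change (log2, low phosphate against control, x axis) of every tested member of 15 gene lists (y axis), where orange points are called higher, blue points called lower, grey points not called, and the black bar is the list's median. Among the matched members shown, the upper 4 lists hold called gains and no called losses (AT1G73600, an unmatched lipid entry called lower, is not drawn). The medians of the nitrogen, sulfate, iron and flavonoid lists lie below 0. Those of the photosynthesis (-0.17), ribosomal protein (-0.04) and translation factor (-0.02) lists do too, and these lists hold no call.

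Root hair genes gained footprints. Of 28 tested members, 16 rose and none fell, with a median log2 change of 1.16, and both low phosphate libraries lay above both control libraries in 25. Over all tested genes, 0.911% were called higher, and 19.5% had both low phosphate libraries above both controls. The members with large gains included secreted wall proteins and wall enzymes. XTH14 (AT4G25820), a xyloglucan endotransglucosylase, had 50.8 and 52.5 CPM in control and 262 and 163 in low phosphate, a change of 2.04 ± 0.21 (edgeR adjusted p = 0.00188). RHS13 (AT4G02270), an extensin-like protein, had 90.0 and 115 CPM in control and 434 and 331 in low phosphate, a change of 1.90 ± 0.18 (adjusted p = 0.00138). AGP3 (AT4G40090), an arabinogalactan protein, had 52.3 and 42.0 CPM in control and 200 and 158 in low phosphate, a change of 1.92 ± 0.18 (adjusted p = 0.00124). None of the 3 had overlapping conditions.

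Regulators and early-acting genes of root hairs had a range of values. RSL2, a transcription factor of hair growth, rose by 1.49 ± 0.27 (edgeR adjusted p = 0.0326), and COW1, a phosphatidylinositol transfer protein needed for hair tips, by 1.65 ± 0.18 (adjusted p = 0.00243). The call of COW1 held whichever footprint library was left out, and that of RSL2 did not. RHD6, which starts hair formation, had 0.44 ± 0.29 and RSL4, which sets hair length, 0.37 ± 0.27, neither called (adjusted p = 0.598 and 0.641). CSLD3, a cellulose synthase-like protein of hair tips, had 0.33 ± 0.13 (adjusted p = 0.384). The differences between early and late genes were not tested. Together the list took 0.115% and 0.124% of the footprints of a control library and 0.318% and 0.273% of a low phosphate library. In whole roots, more hair cells and more mRNA per hair cell cannot be told apart. Without control replicate 1 the list had 10 calls, and EXPA7, an expansin, lost its call (adjusted p = 0.0952). Among 24 other cell wall genes none rose and 1 fell, against 0.282% of all tested genes called lower. This was EXPA15 (AT2G03090), with 52.0 and 44.5 CPM in control and 20.0 and 18.4 in low phosphate (change -1.33 ± 0.17, edgeR adjusted p = 0.00397).

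Other genes with large gains belonged to no list. HAK5 (AT4G13420), a high-affinity potassium transporter, had 8.17 and 5.51 CPM in control and 63.7 and 60.4 in low phosphate, a change of 3.18 ± 0.21 (edgeR adjusted p = 0.000179). OCT1 (AT1G73220), an organic cation and carnitine transporter, had 62.7 and 70.3 CPM in control and 371 and 527 in low phosphate, a change of 2.75 ± 0.27 (adjusted p = 0.00135). The replicates of OCT1 differed more than those of HAK5, and neither gene overlapped between conditions. CPL3 (AT4G01060), also known as ETC3, a small MYB protein of hair and trichome patterning, rose by 3.41 ± 0.50 (adjusted p = 0.00964; 0.0827 without low phosphate replicate 1). GolS2 (AT1G56600), a galactinol synthase, rose by 3.20 ± 0.51 (adjusted p = 0.0160; 0.0769 to 0.107 without either control replicate or low phosphate replicate 1). CYP78A9 (AT3G61880), a cytochrome P450 gene, rose by 3.26 ± 0.43 (adjusted p = 0.00517; 0.0651 without control replicate 1).

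Several genes of steep gain had no name in the reference. AT3G25240 had 0.743 and 0.435 CPM in control and 21.1 and 31.0 in low phosphate, a change of 5.45 ± 0.51 (edgeR adjusted p = 0.00135). AT4G37220 had 4.76 and 4.35 CPM in control and 74.4 and 77.5 in low phosphate, a change of 4.06 ± 0.19 (adjusted p = 1.82e-05). Replicates of AT4G37220 were close in both conditions. AT5G17340 rose by 4.81 ± 0.50 (adjusted p = 0.00180). For AT4G23000, 3 counts over the control libraries stood against 177 in low phosphate, a scaled ratio of 39.3 (exact 95% counting interval 13.2 to 192; adjusted p = 0.00328). A pair of called genes had no count in control. AT1G08165 had 113 counts in low phosphate, at least 25.1-fold higher, and AT5G09570 had 70, at least 15.5-fold higher, each against 3 counts over the control group. Neither call held in every fit that left out a footprint library.

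The called genes were also ranked by their gain in CPM. ANNAT1 (AT1G35720), annexin 1, a calcium-dependent membrane-binding protein, gained most of these, from 1062 and 1102 CPM to 2448 and 2590 CPM, a change of 1.22 ± 0.13 (edgeR adjusted p = 0.00221). HCHIB (AT3G12500), a basic chitinase, had 473 and 355 CPM in control and 1072 and 1208 in low phosphate, a change of 1.46 ± 0.18 (adjusted p = 0.00361). AT2G43535 had 165 and 110 CPM in control and 573 and 451 in low phosphate, a change of 1.90 ± 0.21 (adjusted p = 0.00243). In each of the 3 the lowest low phosphate library was above the highest control library. PPC1, G3Pp1, PHT1;4, OCT1 and AT5G44020 were the others among the 8 largest gains of called genes. The order by gain in CPM is not corrected for coding length. AT5G44020 had a change of 0.82 ± 0.16 (adjusted p = 0.0416). Its call was lost with either control replicate left out (0.280 and 0.115) and with low phosphate replicate 1 left out (0.260).

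**Figure D3:**
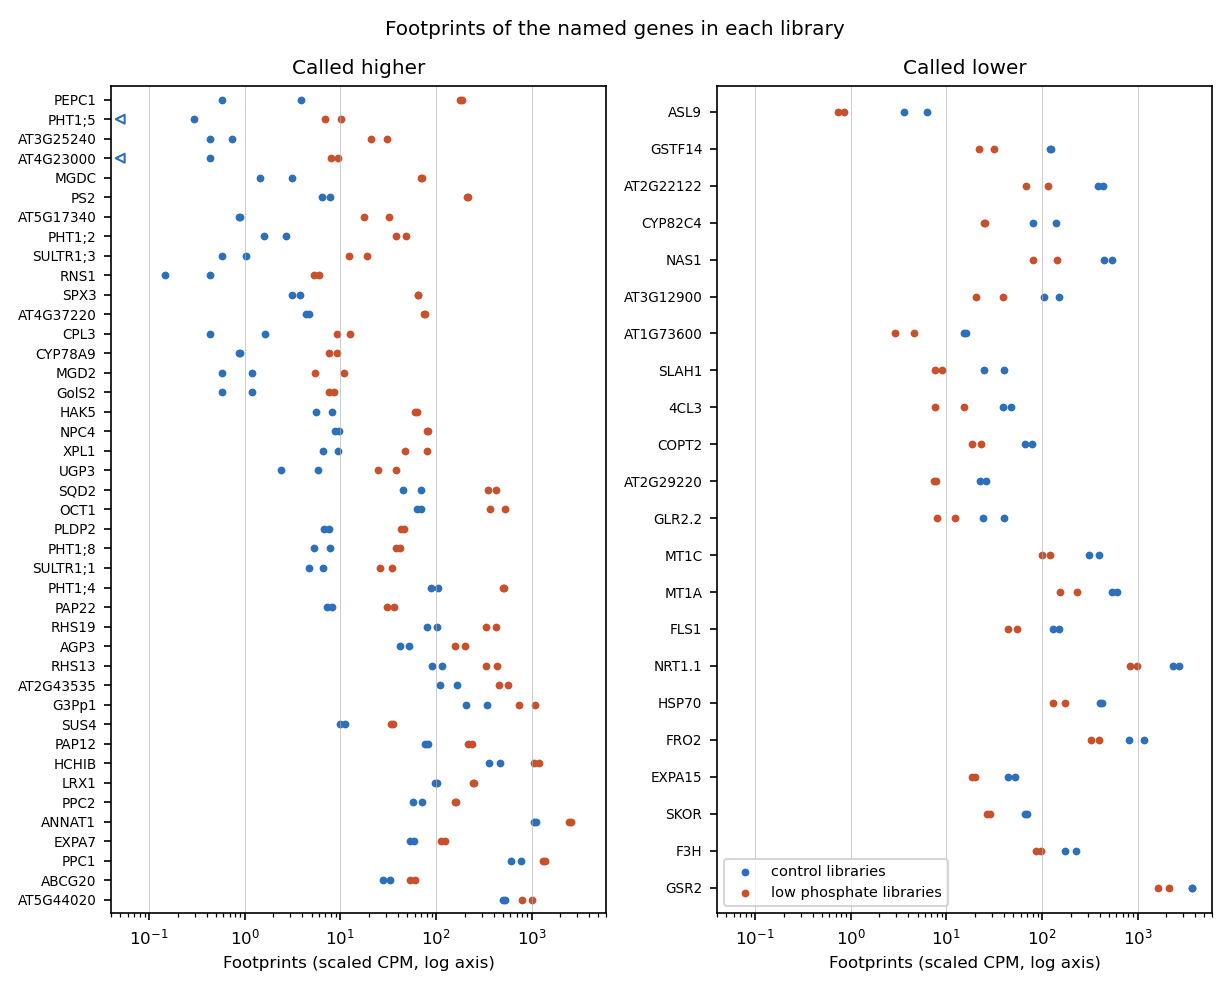
Footprints (scaled CPM, log axis) of the named called genes in each library, with genes called higher on the left and lower on the right, ordered by log2 change; blue points are the 2 control libraries and orange points the 2 low phosphate libraries, and an open triangle at the left edge marks a library with no count. Control and low phosphate points are apart for every gene shown, which the rule for naming them required.

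Losses were fewer than gains and included genes that handle nitrogen, iron, copper and flavonoids. Of 23 tested nitrogen genes, 2 fell and none rose, with a median log2 change of -0.34. Among all tested genes, 0.282% were called lower. Both low phosphate libraries lay below both control libraries in 12 nitrogen genes and above them in 3. The shares over all tested genes were 18.4% and 19.5%. GSR2 (AT1G66200), a cytosolic glutamine synthetase, showed the largest loss of footprints in CPM among called genes, with 3706 and 3690 in control and 1639 and 2108 in low phosphate, a change of -0.98 ± 0.16 (edgeR adjusted p = 0.0223). That call was lost with either control replicate left out (0.150 and 0.0839) and with low phosphate replicate 1 left out (0.149). NRT1.1 (AT1G12110), a nitrate transporter and sensor, was next, with 2360 and 2685 CPM in control and 833 and 979 in low phosphate. Of the other glutamine synthetases in the list, GSR 1 and GLN1.3 had 0.02 ± 0.16 and -0.02 ± 0.13. GLN1;4 had 24.2 and 29.3 CPM in control and 16.7 and 20.7 in low phosphate, which do not overlap, a change of -0.52 ± 0.19 that was not called (adjusted p = 0.342). The ammonium transporters AMT1;1, AMT1;2 and AMT1;3 had changes of -0.46 ± 0.20, -0.66 ± 0.22 and -0.91 ± 0.28, none called (adjusted p = 0.410, 0.292 and 0.236). The list took 1.60% and 1.48% of footprints in control and 1.01% and 1.1% in low phosphate.

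Of 37 tested genes of iron and copper uptake, transport, storage and regulation, 4 fell and none rose, with a median of -0.66. Among all tested genes, 0.282% were called lower. Both low phosphate libraries lay below both control libraries in 23 of the 37, against 18.4% of all genes. FRO2 (AT1G01580), the root ferric reductase, had 820 and 1165 CPM in control and 329 and 399 in low phosphate, a change of -1.45 ± 0.22 (edgeR adjusted p = 0.0137). The FRO2 call was lost when control replicate 2 (0.0731) was left out and when low phosphate replicate 1 was (0.142). CYP82C4 (AT4G31940), which makes a phenolic iron chelator, had 81.6 and 140 CPM in control and 25.2 and 24.7 in low phosphate, a change of -2.15 ± 0.25 (adjusted p = 0.00296). NAS1 and COPT2, for nicotianamine synthesis and copper uptake, were the other calls. IRT1 (AT4G19690), the main iron importer, had 789 and 1232 CPM in control and 257 and 402 in low phosphate, a change of -1.62 ± 0.32 just outside the threshold (adjusted p = 0.0511). FRU, the transcription factor also called FIT that drives FRO2 and IRT1, had -0.75 ± 0.21 (adjusted p = 0.172). The ferritins FER1, FER3 and FER4, which store iron, had changes of 0.09 to 0.35. The number of calls in this list depended on the method, with 10 by DESeq2, 8 without the low-count filter and 11 with the replicate block.

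Of 19 tested sulfate genes, 2 rose, the transporters SULTR1;1 and SULTR1;3, and none fell, while the list median was -0.65. Among all tested genes, 0.911% were called higher. SULTR1;2 (AT1G78000), the main sulfate importer of replete roots, had 1365 and 1373 CPM in control and 556 and 1005 in low phosphate, a change of -0.81 ± 0.27 (edgeR adjusted p = 0.279). SULTR1;1 (AT4G08620) had 4.76 and 6.52 CPM in control and 34.3 and 26.3 in low phosphate. Further along, the APS reductases APR1, APR2 and APR3 had changes of -0.65 ± 0.41, -0.54 ± 0.57 and -1.21 ± 0.44, and none was called. Their control libraries differed, with 275 and 112 CPM for APR3.

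Of 8 tested flavonoid genes, 2 fell and none rose, against 0.282% of all tested genes called lower, and the median was -0.99. FLS1 (AT5G08640), flavonol synthase, had 152 and 130 CPM in control and 55.4 and 44.2 in low phosphate, a change of -1.49 ± 0.18 (edgeR adjusted p = 0.00328). F3H (AT3G51240), flavanone 3-hydroxylase, had 172 and 227 CPM in control and 98.0 and 86.6 in low phosphate, a change of -1.11 ± 0.18 (adjusted p = 0.0189). F3H lost its call without control replicate 2 (0.0876), low phosphate replicate 1 (0.0913) or 2 (0.0986). 4CL3 (AT1G65060), a coumarate ligase that feeds this pathway, fell by 1.96 ± 0.30 on the log2 scale (adjusted p = 0.0122; 0.108 without control replicate 1). TT4, chalcone synthase, had 362 and 547 CPM in control and 137 and 396 in low phosphate, so that the conditions overlapped.

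**Figure D4:**
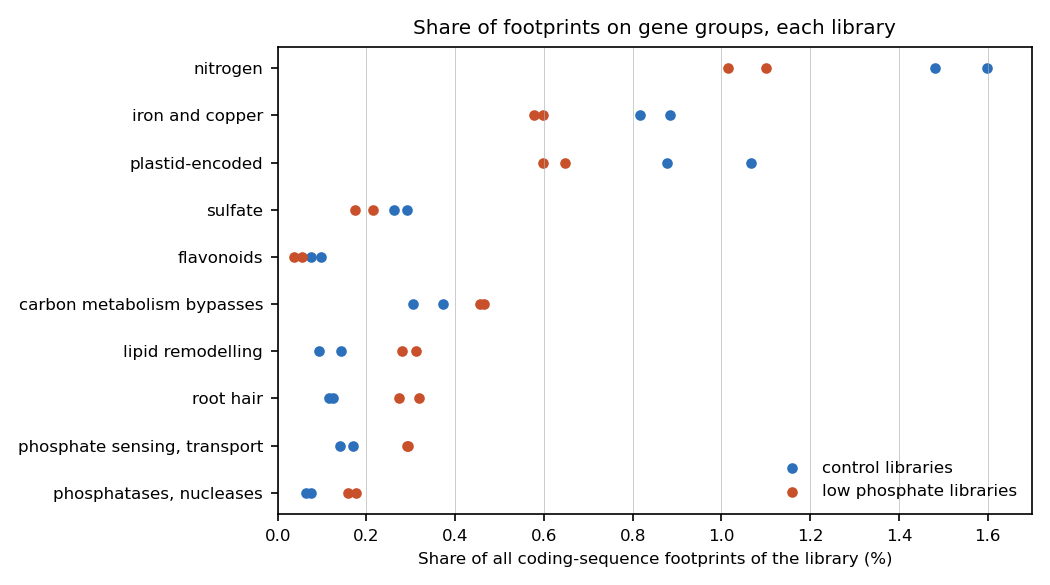
Share of all coding-sequence footprints of a library (%, x axis) that lay on each of 10 gene groups (y axis), with 1 point per library, blue for the 2 control and orange for the 2 low phosphate libraries. All 10 groups shown are ones whose conditions do not overlap. Among groups not drawn, the ribosomal protein, translation factor, photosynthesis, cell division and other cell wall genes did overlap. Some groups not drawn did not overlap, among them the endodermis list (low phosphate above control) and the root cap list (low phosphate below control). With 2 libraries per condition the smallest two-sided exact permutation p is 0.333, so no test was made.

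Further losses were in metal-binding and heat shock proteins. The metallothionein genes MT1A (AT1G07600) and MT1C (AT1G07610), which lie next to each other, both fell. MT1A had 604 and 546 CPM in control and 231 and 155 in low phosphate, a change of -1.57 ± 0.20 (edgeR adjusted p = 0.00446; just over the threshold without control replicate 1). MT1C had 395 and 307 CPM in control and 100 and 123 in low phosphate, a change of -1.66 ± 0.17 (adjusted p = 0.00192). Reads may be shared between these near-identical genes. HSP70 (AT3G12580), a heat-inducible chaperone, had 404 and 428 CPM in control and 129 and 174 in low phosphate, a change of -1.45 ± 0.17 (adjusted p = 0.00310). HSP90.1, another heat-inducible chaperone that was picked after its values were seen, fell by 1.38 ± 0.18 on the log2 scale (adjusted p = 0.00552). The call of HSP70 held whichever footprint library was left out, and that of HSP90.1 did not. Of 11 tested genes picked by names of the HSP70 and HSP90 families, HSP70 and HSP90.1 were the only ones called. Among all tested genes, 0.282% were called lower.

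Among transporters and channels, SKOR (AT3G02850), which releases potassium into the xylem, had 69.1 and 66.2 CPM in control and 28.4 and 26.5 in low phosphate, a change of -1.30 ± 0.14 (edgeR adjusted p = 0.00237). SLAH1 (AT1G62280), a homologue of the anion channel SLAC1, fell by 1.98 ± 0.33 on the log2 scale (adjusted p = 0.0200). GLR2.2 (AT2G24720), a glutamate receptor-like channel, fell by 1.67 ± 0.29 (adjusted p = 0.0246). SLAH1 lost its call without control replicate 2 (0.0933), low phosphate replicate 1 (0.201) or 2 (0.0764), and GLR2.2 without control replicate 2 (0.0998) or low phosphate replicate 1 (0.221). GSTF14 (AT1G49860), a phi-class glutathione transferase, had 126 and 120 CPM in control and 31.3 and 22 in low phosphate, a change of -2.20 ± 0.22 (adjusted p = 0.00156). ASL9 (AT1G16530), a LOB-domain transcription factor, had the steepest fall that the naming rule picked, -2.64 ± 0.50 (adjusted p = 0.0374), from 6.24 and 3.62 CPM to 0.738 and 0.848 CPM. Only leaving out control replicate 2 kept the ASL9 call among the 4 footprint libraries; the other adjusted p-values were 0.117 to 0.310. Besides AT1G73600, the unmatched entry of the lipid list, the unnamed genes AT2G22122, AT3G12900 and AT2G29220 fell by 2.15, 2.10 and 1.69 on the log2 scale, and the last pair lost their calls without single libraries (adjusted p up to 0.183 for each).

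The translation machinery itself was not called. None of 20 tested cytosolic ribosomal protein genes and none of 15 translation factor genes passed edgeR's threshold, with median log2 changes of -0.04 and -0.02; at an unadjusted p under 0.05 there were 0 and 2, and DESeq2 called none. RPL18 (AT3G05590), the gene whose product carried the tag, had 179 and 215 CPM in control and 185 and 185 in low phosphate (change -0.09 ± 0.15, adjusted p = 0.865). Reads of the transgene and of the gene itself cannot be told apart. Lists of jasmonate (15 tested), autophagy (10), cell division (18) and root cap (3) genes also held no edgeR call; at an unadjusted p under 0.05 there were 2 cell division genes and 0 in each of the other lists, and DESeq2 called none of these genes. Of 23 endodermis genes, the suberin transporter ABCG20 was called higher (0.91 ± 0.16, adjusted p = 0.0243; 0.0794 to 0.181 without either control replicate or low phosphate replicate 1), and of 12 vascular genes SKOR was lower. Of 10 genes known from roots, all 10 had footprints and EXPA7 was the only call. Among all tested genes, 0.911% were called higher and 0.282% lower.

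Markers of green tissue and of plastids varied between libraries. The 28 photosynthesis genes held 0.0745% and 0.154% of footprints in control and 0.126% and 0.0832% in low phosphate. Control replicate 2 and low phosphate replicate 1 were the higher ones, the conditions overlapped, and no member was called by edgeR or DESeq2 or had an unadjusted p under 0.05 (0 in edgeR). The 88 plastid-encoded genes held 0.878% and 1.07% in control and 0.648% and 0.599% in low phosphate, without overlap. The tag sits on a cytosolic ribosomal protein. ATCG00470 was the only plastid gene called, with 70.6 and 65.2 CPM in control and 38.6 and 43.0 in low phosphate, a change of -0.74 ± 0.14 (edgeR adjusted p = 0.0425). This call was lost in each fit that left out a footprint library (adjusted p = 0.0919 to 0.313). The part of green tissue or plastid content in the other changes was not tested. Removing organelle and photosynthesis genes before scaling, which bears on the scaling alone, gave 183 genes higher and 56 lower.

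The following gene families were picked after their values were seen, and 0.911% of all tested genes were called higher. Among atypical dual-specificity phosphatases, 3 of 5 tested rose (PFA-DSP1, PFA-DSP2 and PFA-DSP4, by 0.93 to 2.34 log2 units). Of 5 glycerol-3-phosphate permeases, G3Pp1, G3Pp2 and G3Pp3 rose. Of 9 metacaspases, the neighbours MC5 and MC6 rose, by 1.15 and 1.48. Among calcium proteins, 2 of 9 autoinhibited calcium ATPases (ACA9 and AT3G22910) and 2 of 9 calcineurin B-like sensors (CBL1 and CBL6) rose. Of 9 actin depolymerizing factors, ADF8 and ADF11 rose, by 1.03 and 1.00. Among the risen genes of these families, only the calls of G3Pp2 and G3Pp3 held whichever footprint library was left out. None of 30 tested histone genes was called by edgeR or DESeq2, and 0 had an unadjusted edgeR p under 0.05. The median over all members was 0.20 for metacaspases, 0.28 for the calcium ATPases, -0.33 for the calcineurin B-like sensors and 0.05 for actin depolymerizing factors.

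Footprint calls were set beside the poly(A) changes of the same genes. In poly(A) RNA, 1.18% of tested genes were called in either direction. All 181 higher genes had a poly(A) change above 0, with a median of 1.43 log2 units against 1.52 in footprints, and 54 of the 56 lower genes had a poly(A) change below 0, with a median of -1.11 against -1.31. The footprint change exceeded the poly(A) change in size in 124 of the 181 and 48 of the 56, counts from which nothing is read, since the footprint libraries chose these genes. By edgeR's test of the difference itself, 0% of genes were called in either direction, with 397 genes at an unadjusted p under 0.05 of 19866 (270 by DESeq2, which also called none). When each footprint library was paired with the poly(A) library of its number, a pairing that the labels do not state, 1559 genes had an unadjusted p under 0.05, and edgeR called 3 genes higher (XPL1, UGP3 and AT2G14910) and 5 lower (MT1A, ATCG00470, ATCG00330, ATCG00140 and AT5G59690). These names were picked after their values were seen. The deviations of such pairs from their group means had a correlation over genes of 0.270 for control and 0.453 for low phosphate. Among the genes called in footprints the smallest p-values of that difference belonged to ATCG00470, MT1A and XPL1. ATCG00470 had a difference of -0.86 ± 0.20 in log2 units. MT1A had a difference of -1.05 ± 0.28, with a poly(A) change of -0.52 that was not called (adjusted p = 0.428). XPL1 had a difference of 1.38 ± 0.39, with 6.54 and 9.57 CPM of footprints in control and 80.9 and 47.0 in low phosphate. For all 3, the edgeR adjusted p of the difference was 1.00 after rounding without pairs, and 0.0424, 0.00279 and 0.00324 with them.

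The dsRNA libraries, from separate extracts and another line label, give a readout that shares no library with the footprints. In dsRNA, 10.2% of 17570 tested genes were called higher and 5.57% lower by edgeR on those 4 libraries. Of the 181 genes higher in footprints, 180 could be tested there, and 171 (95%) were higher and none lower. Of the 56 lower genes, 55 could be tested, and 39 (70.9%) were lower and none higher. Median changes of these genes in dsRNA were 2.51 and -1.65 log2 units. SPX1, PAP17 and SRG3, not called in footprints, were higher in dsRNA by 5.61, 4.70 and 5.36. Exceptions were also seen. SULTR1;1 rose in footprints by 2.43 ± 0.23 and had -0.50 in dsRNA (edgeR adjusted p = 0.454), and 4CL3 fell in footprints and had 0.03 in dsRNA (adjusted p = 0.966).

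**Figure D5:**
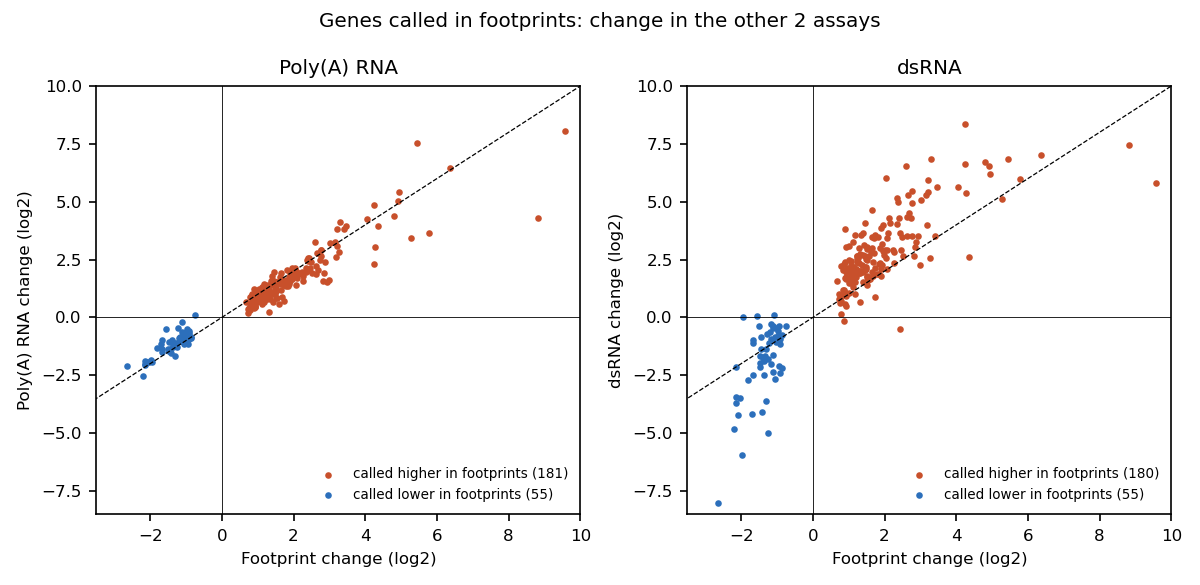
Genes called in footprints, with their footprint change (log2) on the x axis and their change in poly(A) RNA (left) or dsRNA (right) on the y axis; orange points are genes called higher in footprints, blue points genes called lower, the dashed line marks equal change, and CKI1, which had no poly(A) read, is left out. Points lie near the dashed line for poly(A) RNA and mostly beyond it for dsRNA, where the medians are 2.51 and -1.65.

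The called genes were spread over all 5 nuclear chromosomes, with 0.904% of tested genes called on chromosome 5 and 1.59% on chromosome 4. Neighbouring genes called in the same direction formed 4 pairs among the gains and 1 among the losses. These were MC5 with MC6, HRGP1 with AT3G54580, EXT10 with AT5G06630, AT4G31240 with AT4G31250, and MT1A with MT1C. NAS1 and its neighbour AT5G04960 were called in opposite directions, with log2 changes of -2.15 and 1.78.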

How the data were processed

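The deposited values are raw read counts over the coding sequence of each gene, and per gene for dsRNA. The authors used CASAVA 1.8, TopHat 1.3.1 and Bowtie2 2.2.9 on TAIR10, per the submitters' processing notes; the sources used here do not state how reads were assigned to genes or with which strand setting; genes that overlap, lie antisense or are nearly identical may hold each other's reads. Gene names came from a RefSeq table of assembly TAIR10.1, in which 26719 of 27416 genes matched; sequences were not used here.

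The 4 footprint and 4 poly(A) libraries were fitted together with edgeR 4.0.16 in R 4.3.3 (TMM scaling, default expression filter by group, quasi-likelihood, two-sided tests). The threshold was a Benjamini-Hochberg adjusted p of 0.05. Errors are SE of log2 changes. The dsRNA counts were fitted alone on 4 libraries. The p-values rest on the spread between 2 bioreplicates per condition, which may be partly technical. In the joint fit, that spread is estimated from the footprint and the poly(A) replicates together and is shared across genes. This fit treats footprint and poly(A) libraries as independent.

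The 22 gene lists, the members and the rule for named genes were chosen with earlier results of these data known. The rule took called genes with non-overlapping conditions and a mean log2 CPM of at least 1: the 20 largest rises, the 15 largest falls, 8 gains and 8 losses in CPM, 4 per list by p, 3 by the footprint minus poly(A) difference, and 6 set genes. At most 4 per direction were unnamed. Of 419 list entries, 407 matched by name; of the 12 left out, AT1G63010 (phosphate transport) was called higher and AT1G73600 (lipid remodelling) lower. The result of 1 list is not reported here. A fold against a group with no count is a bound that puts 3 counts in that group. The tests were tried on simulated data. Alternatives were a fit without the low-count filter, DESeq2 1.42.0, the replicate block, RLE scaling, footprint libraries alone, footprint and poly(A) libraries as pairs, removal of organelle and photosynthesis genes, and leaving out single libraries. Depth was 7156329 to 12817826 counts per footprint library, where 3 counts are 0.234 to 0.419 CPM.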

Additional observations from a re-analysis of the deposited data

How the results depend on the processing

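Counts of called genes moved with the method. Against 181 higher and 56 lower genes, DESeq2 called 321 and 161, the fit with no low-count filter 300 and 125, and the fit with the replicate block 275 and 143. RLE scaling gave 183 and 57, and the footprint libraries alone 131 and 38. Leaving out 1 footprint library at a time gave 74 to 144 higher and 16 to 40 lower genes. All 237 genes remained called with DESeq2, RLE scaling, no low-count filter and the replicate block, settings that called more genes (482, 240, 425 and 418). With the footprint libraries alone, which called 169, only 159 of the 237 remained. Leaving out a footprint library also lost calls. For the footprint minus poly(A) difference, no gene was called except when same-numbered libraries were treated as pairs (3 higher, 5 lower). Replicate numbers are not stated to mark a shared batch; deviations of same-numbered control and low phosphate footprint libraries had a correlation of -0.0499, and those of footprint and poly(A) libraries 0.270 and 0.453. The change of RPL18, not called, ranged from -0.22 to 0.053 when a footprint library was left out. Of 65 named called genes, 46 to 58 kept their call when a footprint library was left out. Genes called both in footprints and in dsRNA stayed within 1.5 times of 171 and 39 under 5 alternatives chosen after seeing the data. Of 914 genes with a mean under 1 CPM, none was called by edgeR, by DESeq2, without the filter or with the block, and the size of change that could be detected there was not measured.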

Other observations

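A pair of RNAs that rose in poly(A) RNA had few footprints. IPS1 (AT3G09922), a non-coding RNA known to sequester a microRNA of the phosphate response, had 2.77 and 0.202 CPM of poly(A) reads in control and 136 and 117 in low phosphate (edgeR adjusted p = 0.00268). Its footprints were 0 and 0 CPM in control and 1.15 and 0.606 in low phosphate. AT5G03545 had 22.3 and 7.43 CPM of poly(A) reads in control and 547 and 508 in low phosphate (adjusted p = 0.00159), against footprints of 0 and 0 CPM and 2.05 and 0.848 CPM. Neither was called in footprints (adjusted p = 0.505 and 0.308), and both were picked after their values were seen.

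CKI1 (AT2G47430, CYTOKININ-INDEPENDENT 1, a histidine kinase) had the steepest called loss and an unusual profile. The control libraries held 64 and 37 footprint counts of it and the low phosphate libraries 2 and 1, a scaled ratio of low phosphate to control of 0.0198 (exact 95% counting interval 0.00401 to 0.0595; edgeR adjusted p = 0.0189). No read of it was counted in any of the 4 poly(A) libraries. Its footprint call did not hold in every fit that left out a footprint library. Of 17766 genes with at least 50 footprints, 10 had no poly(A) read. Of these CKI1 was the only one called; UBQ13, for example, had 10 and 17 footprint counts against 18 and 26. The source of the CKI1 reads was not tested.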
